A study of Mus musculus with 4 samples.

Results

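The mRNA levels of 3 immune transcription factors, *STAT3*, *NF-κB* (printed as NF-ҡB in the gene panel) and *IRF-4*, were examined in whole mouse lung by RT-qPCR. These genes were taken as named, out of 98 panel genes measured beside 2 housekeeping assays, and all 3 matched exactly 1 assay. All 4 groups were female C57BL/6J mice, 6 to 8 weeks old, given an injection into the lung and then intranasal treatment on Days 3, 6 and 9, with lungs taken on Day 10. HBSS + vehicle mice received DPBS with Matrigel in the lung and HBSS, a salt solution, intranasally. S100A8 + vehicle mice received the same injection and 10 µg of mouse recombinant S100A8, a calcium-binding protein of myeloid cells. HBSS + LLC and S100A8 + LLC mice received Lewis lung carcinoma cells (LLC, a mouse lung cancer line of the same strain) with Matrigel in place of the vehicle, followed by HBSS or 10 µg of S100A8. The cancer model rests on a single cell line, and in LLC groups the whole lung can hold RNA of implanted cells as well as of the host. Ct values of 4 to 5 mice were averaged by the authors, which left 1 value per gene and group, with no SD, no n and no possible test of any difference below.

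STAT3 is activated by cytokines such as IL-6 and IL-10, enters the nucleus as a dimer and induces genes of the acute phase response, cell survival and myeloid cell expansion, together with its own inhibitor SOCS3. NF-κB is a family of dimers held in the cytoplasm until TNF-α, IL-1β or pattern recognition receptors release it, after which it induces chemokines, cytokines and adhesion molecules. IRF-4 is made mainly in lymphocytes, dendritic cells and alternatively activated macrophages, where it directs T cell and plasma cell differentiation. STAT3 and NF-κB are regulated to a large extent by phosphorylation and movement into the nucleus, which mRNA levels do not measure. The panel does not say which NF-κB subunit was assayed. In the RefSeq annotation its name matches a single gene, and only as a synonym, of *Nfkb1*.

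The promoters of *Stat3* and *Irf4* are shown with a search for the binding motifs of the factors themselves, since these factors can act on one another's genes. The sequences are from RefSeq, GRCm38.p6, written 5′ to 3′ on the gene's strand. The windows were searched on both strands for a STAT site (TTCNNNGAA, found in 7.02% of 32851 mouse promoter windows), the NF-κB consensus site (7.25%), an IRF core (GAAANNGAA, 7.13%) and the SP1 box (GGGCGG, 32.7%). Of these motifs only the SP1 box was found, once in *Stat3* and at 2 places in *Irf4*, on either strand, and it is given in capitals.
Stat3, chr11:100939595-100939790, minus strand, 196 bases upstream of the gene: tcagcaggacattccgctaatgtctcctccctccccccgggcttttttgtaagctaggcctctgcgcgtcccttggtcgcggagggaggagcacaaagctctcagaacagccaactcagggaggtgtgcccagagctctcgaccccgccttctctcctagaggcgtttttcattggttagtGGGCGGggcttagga
Irf4, chr13:30748983-30749232, plus strand, 250 bases upstream of the start: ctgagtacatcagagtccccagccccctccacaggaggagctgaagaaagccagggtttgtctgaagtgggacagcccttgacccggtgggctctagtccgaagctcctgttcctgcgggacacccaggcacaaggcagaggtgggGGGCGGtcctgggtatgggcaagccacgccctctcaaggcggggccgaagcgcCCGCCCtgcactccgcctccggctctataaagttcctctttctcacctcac
A match is a description of the letters, and the absence of the other motifs refers only to these windows and to the exact patterns searched, not to looser forms.

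In RT-qPCR a transcript is quantified by its threshold cycle (Ct), the PCR cycle at which it is first detected, so a higher Ct means less template. *STAT3*, the cytokine-activated factor, was detected at 18.98 cycles on average in HBSS + vehicle lungs, at 19.84 after S100A8 + vehicle, at 19.51 after HBSS + LLC and at 20.82 after S100A8 + LLC. *NF-κB*, the inflammatory factor, had 20.95, 22.38, 21.28 and 22.86 in the same order. *IRF-4*, the lymphoid and myeloid differentiation factor, had 22.06, 23.44, 23.29 and 24.06. Before any normalization, each of the 3 genes therefore had its lowest Ct in HBSS + vehicle and its highest in S100A8 + LLC. All 12 values were far from the 38-cycle limit of detection. The housekeeping assays did not move together. The first had a Ct of 14.09, 16.17, 15.35 and 15.82, and the second 22.50, 23.30, 20.56 and 22.75. In HBSS + LLC the second assay had its lowest Ct of the 4 groups while the first was above its HBSS + vehicle value, so the choice between them sets the sign of several changes. Their identity as β-actin or β2M is not given in the deposited values.

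**Figure D1:**
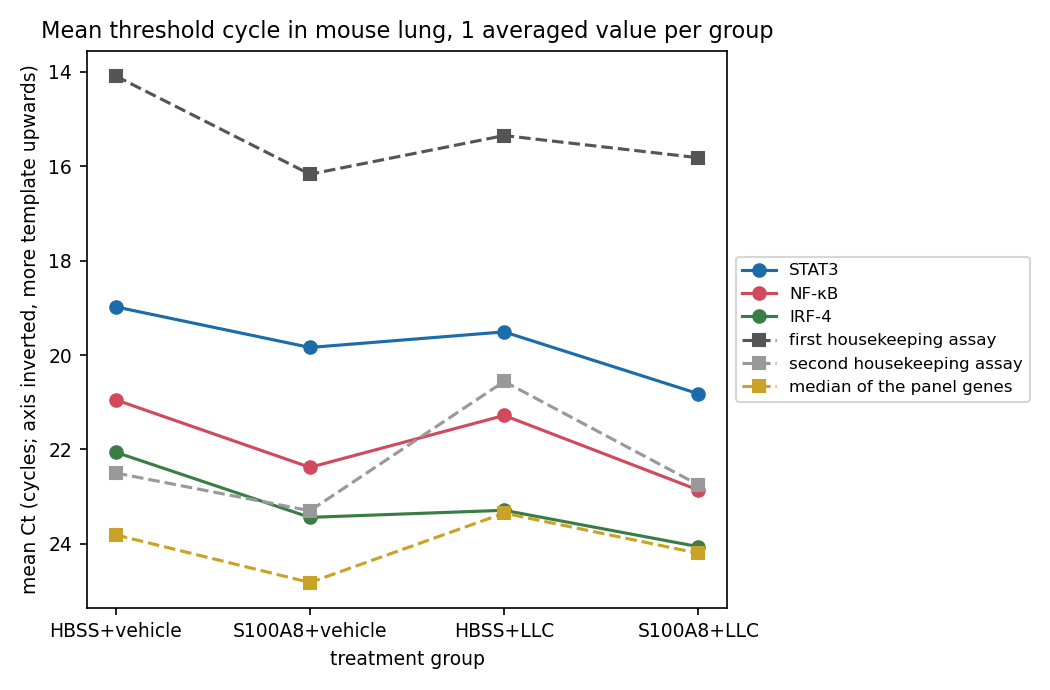
Mean Ct in cycles (vertical axis, inverted so that more template lies upwards) in the 4 treatment groups for *STAT3*, *NF-κB*, *IRF-4*, both housekeeping assays and the median of the panel genes. Each point is 1 averaged value without an error bar, and lines only join the points of an assay. The 3 genes lie highest in HBSS + vehicle and lowest in S100A8 + LLC, whereas the second housekeeping assay reaches its lowest Ct, 20.56, in HBSS + LLC.

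Relative to the mean of both housekeeping assays, the normalised Ct of *STAT3* was 0.69 with HBSS + vehicle, 0.11 with S100A8 + vehicle, 1.56 with HBSS + LLC and 1.54 with S100A8 + LLC. *NF-κB* had 2.66, 2.65, 3.33 and 3.58, and *IRF-4* had 3.77, 3.71, 5.34 and 4.78. On this scale both cancer-bearing groups had less mRNA of each gene than both groups without cancer, but this rests on that reference. With the first housekeeping assay alone all 3 genes were higher after HBSS + LLC than after HBSS + vehicle, and *NF-κB* was higher there than in S100A8 + vehicle too, by 0.28 on the log2 scale. With no reference gene all 3 were higher in HBSS + LLC than in S100A8 + vehicle, by 0.33 for *STAT3*, 1.10 for *NF-κB* and 0.15 for *IRF-4*. The normalised Ct spanned 1.45 cycles for *STAT3*, 0.93 for *NF-κB* and 1.63 for *IRF-4* across the 4 groups. In whole lung, fewer cells that make a transcript and less transcript per cell cannot be told apart.

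The comparison of S100A8 + vehicle with HBSS + vehicle asked what S100A8 did in lungs without cancer. *STAT3* was 1.49-fold higher (log2 0.58), while *IRF-4* was 1.04-fold and *NF-κB* 1.01-fold higher (log2 0.06 and 0.01). With the second housekeeping assay alone all 3 values fell below 0, to -0.06 for *STAT3*, -0.58 for *IRF-4* and -0.63 for *NF-κB*. With both housekeeping assays none of the genes passed the 2-fold threshold used here, beside 27.8% of 97 panel genes that were more than 2-fold higher and 17.5% that were more than 2-fold lower. *STAT3* passed it with the first assay alone, at 1.22, as did 49.5% of the panel. With no reference gene *NF-κB* and *IRF-4* were past it in the lower direction, at -1.43 and -1.38, as was 54.6% of the panel. *STAT3* exceeded the panel median of 0.34 by 0.24, and *NF-κB* and *IRF-4* lay 0.33 and 0.28 below it. The place of a gene in the panel does not move with the reference, which shifts every gene of a comparison by the same amount. By this measure 56.7% of panel genes lay below *STAT3*, 40.2% below *IRF-4* and 37.1% below *NF-κB*.

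In HBSS + LLC, which shows the effect of the cancer cells without S100A8, *IRF-4* was 2.97-fold lower than in HBSS + vehicle (log2 -1.57), *STAT3* 1.83-fold lower (-0.87) and *NF-κB* 1.59-fold lower (-0.67), but with the first housekeeping assay alone the values were 0.03, 0.73 and 0.93. *IRF-4* alone of the 3 genes passed 2-fold, where 21.4% of 98 panel genes were more than 2-fold lower and 26.5% more than 2-fold higher. The second housekeeping assay alone gave -3.17 for *IRF-4*, -2.47 for *STAT3* and -2.27 for *NF-κB*. Whatever the reference, only 13 panel genes (13.3%) lay below *IRF-4*, against 24.5% below *STAT3* and 33.7% below *NF-κB*. *IRF-4* lay 1.39 below the panel median of -0.19. *LCK*, a kinase of T cells and the panel's T cell marker, had a log2 fold change of -2.37 in the same comparison, also below the panel median. The other markers went either way. *CDH1* (epithelium) was at 4.07, *CAV1* (endothelium and alveolar type 1 cells) at 1.47 and *MKI67* (dividing cells) at -0.46. The myeloid markers *NOX2*, *S100A8* and *S100A9* were at 0.70, 0.15 and -0.38, and *RAGE* and *AGER* (alveolar type 1 cells) at -0.39 and -0.74. The part of T cell number in the *IRF-4* values was not tested.

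S100A8 + LLC was compared with HBSS + vehicle to show both treatments together. All 3 genes were lower, *IRF-4* 2.01-fold (log2 -1.01), *NF-κB* 1.89-fold (-0.92) and *STAT3* 1.80-fold (-0.85). *IRF-4* thus lay at the 2-fold threshold and the other two just short of it, in a comparison with 18.4% of panel genes more than 2-fold lower and 22.4% more than 2-fold higher. The direction was the same under each of the 5 references tried, which shift 1 measurement per gene. With both housekeeping assays 56 of 98 panel genes lay below 0 as well. The values closest to 0 came from the first housekeeping assay alone, at -0.11 for *STAT3*, -0.18 for *NF-κB* and -0.27 for *IRF-4*. The values farthest from 0 came from Ct without any reference gene, at -1.84, -1.91 and -2.0. The count of the 3 genes past 2-fold was 0 with the first assay alone, where 8.16% of the panel was more than 2-fold lower. It was 3 with the second, the panel median or no reference gene, where 48.0%, 41.8% and 56.1% of the panel was. Relative to the panel median of -0.22, *STAT3* lay 0.63, *NF-κB* 0.70 and *IRF-4* 0.79 lower, and 25.5%, 20.4% and 17.3% of panel genes lay below them.

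**Figure D2:**
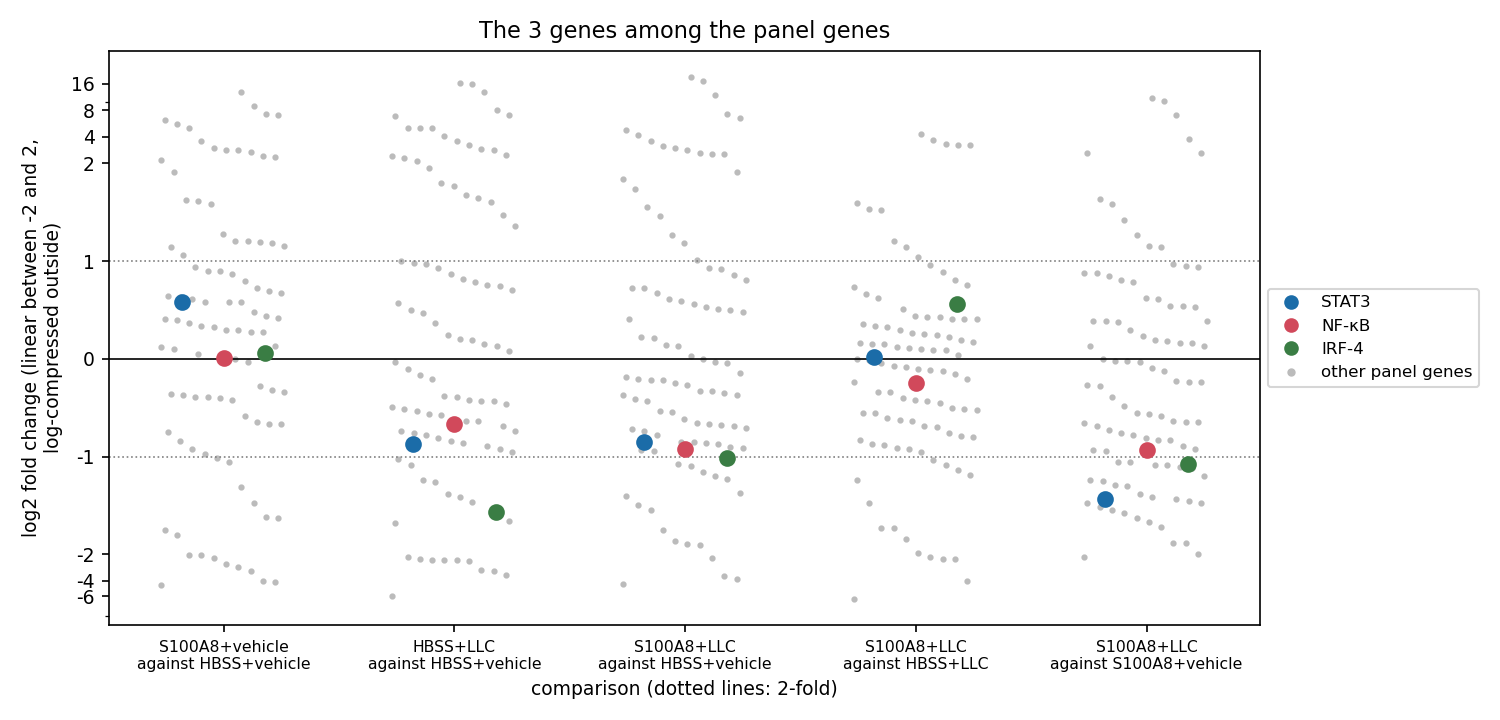
Log2 fold change of each panel gene (grey) and of *STAT3*, *NF-κB* and *IRF-4* (coloured) in 5 comparisons, with both housekeeping assays as reference. Each point is a difference between 2 averaged values. The vertical axis is linear between the marks at -2 and 2 and log-compressed outside. The 3 genes lie within the bulk of the panel, between -1.57 and 0.58, with *IRF-4* lowest in HBSS + LLC and with 13.3% of panel genes below it. With the first housekeeping assay alone all points of a column move together, and in HBSS + LLC the 3 genes come to lie above 0.

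The effect of S100A8 in cancer-bearing lungs was read from S100A8 + LLC against HBSS + LLC. *IRF-4* was 1.47-fold higher (log2 0.56), *STAT3* was 1.01-fold higher (0.02) and *NF-κB* was 1.19-fold lower (-0.25). The signs depended on the reference, since the first housekeeping assay alone gave -0.30, -0.84 and -1.11 in this order and the second 1.42, 0.88 and 0.61. With both assays no member passed 2-fold, beside 15.3% of panel genes more than 2-fold lower and 11.2% more than 2-fold higher. *NF-κB* passed it downwards with the first assay alone, as did 44.9% of the panel, and *IRF-4* upwards with the second, as did 39.8%. With no reference gene *STAT3* and *NF-κB* passed it downwards, at -1.31 and -1.58, as did 70.4% of the panel. The order of the genes was free of the reference. *IRF-4* exceeded 80.6% of panel genes, *STAT3* 53.1% and *NF-κB* 40.8%. *LCK* had a log2 fold change of 0.51 beside 0.56 for *IRF-4*, and both turn below 0 with the first housekeeping assay alone. Of the other markers, *CDH1* was at -0.45, *CAV1* at -0.88, *MKI67* at 0.25, *RAGE* at 0.17 and *AGER* at -0.11. *NOX2*, *S100A8* and *S100A9* were at -0.95, 0.66 and -0.55.

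The effect of LLC cells under S100A8 treatment was read from S100A8 + LLC against S100A8 + vehicle, where the housekeeping assays differed least. *STAT3* was 2.69-fold lower (log2 -1.43), *IRF-4* 2.10-fold lower (-1.07) and *NF-κB* 1.91-fold lower (-0.93), and all 3 stayed below 0 under every reference. With both housekeeping assays 60 of 98 panel genes lay below 0 in this comparison. The range over references was -0.98 to -1.60 for *STAT3*, -0.62 to -1.24 for *IRF-4* and -0.48 to -1.10 for *NF-κB*. In this comparison *STAT3* and *IRF-4* passed 2-fold, and more than 2-fold lower values were frequent in the panel, at 29.6% of genes, with 12.2% more than 2-fold higher. *IRF-4* lost the call with the first housekeeping assay alone, and both genes lost it with no reference gene, where 12.2% of the panel was more than 2-fold lower and 22.4% higher. Among the 75 genes with a Ct of at most 30 in both groups, as all 3 members have, these shares were 37.3% and 2.67%. Markers of lung structure were lower in this comparison as well, *AGER* and *RAGE* (alveolar type 1 cells) at -1.72 and -1.12 and *CDH1*, the epithelial cadherin, at -1.41, while *CAV1* (endothelium and alveolar type 1 cells) was at 0.95 and *LCK* at -0.23. The part of cell composition in the members' values was not tested. *STAT3* lay 1.00 below the panel median of -0.44, with 13.3% of panel genes below it, while 26.5% lay below *IRF-4* and 30.6% below *NF-κB*. The 5 comparisons share groups, so they are not independent of one another.

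**Figure D3:**
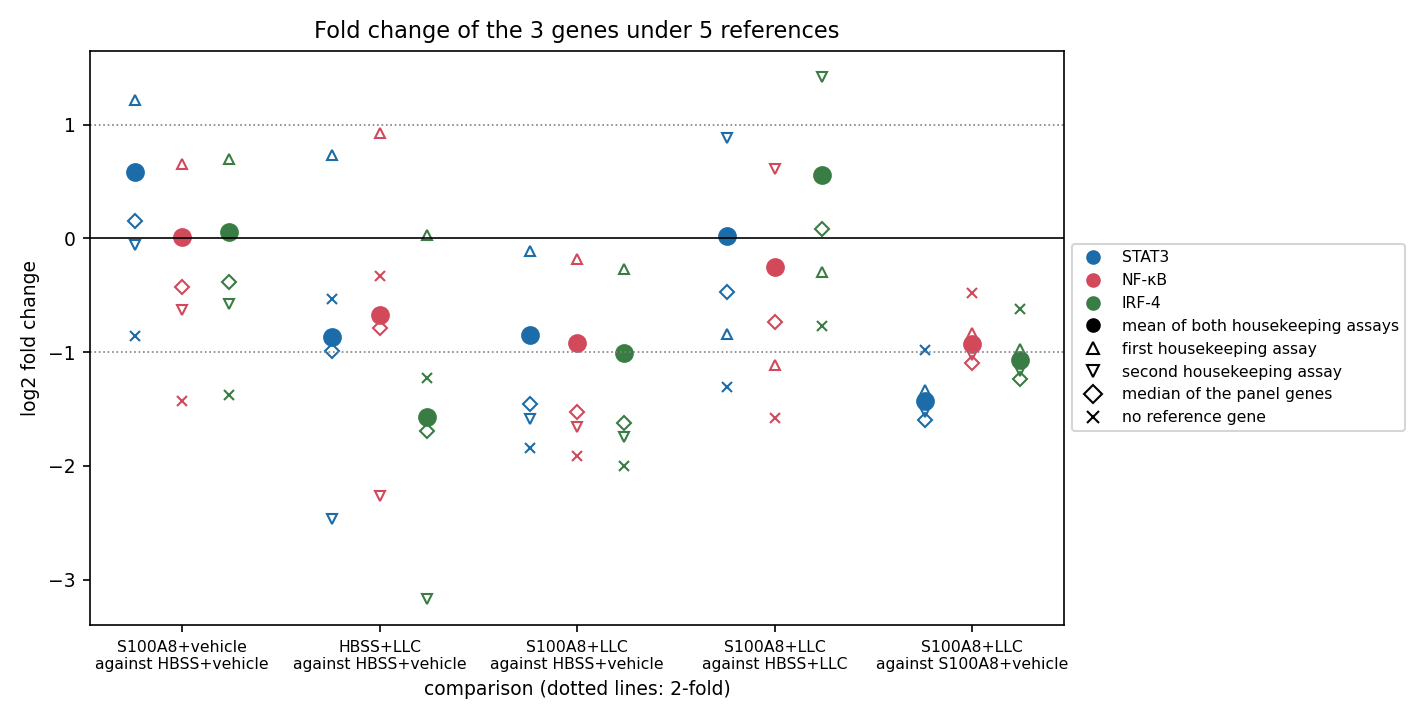
Log2 fold change of *STAT3*, *NF-κB* and *IRF-4* in 5 comparisons with the mean of both housekeeping assays (filled circles), either assay alone (triangles), the median of the panel genes (diamonds) or no reference gene (crosses). Dotted lines mark 2-fold. All 15 values lie below 0 in S100A8 + LLC against HBSS + vehicle and all 15 in S100A8 + LLC against S100A8 + vehicle. With both housekeeping assays, 56 and 60 of 98 panel genes also lie below 0 in these comparisons. The 5 values of a gene are 1 measurement shifted by the reference. In the other comparisons the signs change with the reference.

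The difference between the S100A8 effects with and without cancer was -0.56 on the log2 scale for *STAT3*, -0.26 for *NF-κB* and 0.50 for *IRF-4*. Over 97 panel genes this difference had a median of -0.52 and quartiles of -1.62 and 0.70, so each of the 3 genes lay between the quartiles. With the first housekeeping assay alone the differences became -2.06, -1.76 and -1.0, and with the second 0.94, 1.24 and 2.00. The difference was not tested, because no spread between mice is available.

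Changes of one factor against another need no reference gene. In HBSS + LLC, *IRF-4* was lower against *NF-κB* by 1.87-fold (log2 -0.90) and against *STAT3* by 1.62-fold (-0.70), each set beside HBSS + vehicle. In S100A8 + LLC these differences from HBSS + vehicle were -0.09 and -0.16. Between the cancer-bearing groups, *IRF-4* was thus 1.75-fold higher against *NF-κB* and 1.45-fold higher against *STAT3* with S100A8 than with HBSS. In S100A8 + vehicle, *NF-κB* and *IRF-4* were 1.48-fold and 1.43-fold lower against *STAT3*, and their ratio to each other differed by 1.04-fold from HBSS + vehicle. *NF-κB* and *STAT3* differed by 1.15-fold in HBSS + LLC and by 1.05-fold in S100A8 + LLC in their change from HBSS + vehicle. Of the 3 factors, *STAT3* thus had the change farthest from the others in S100A8 + vehicle and *IRF-4* in HBSS + LLC. These gaps were small beside the spread of the panel, with quartiles of -0.58 and 1.15 in S100A8 + vehicle and of -0.87 and 1.44 in HBSS + LLC. They were not tested. With S100A8 + LLC the 3 changes lay within 0.16 of each other on the log2 scale.

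The pattern over the 4 groups was compared with that of the 97 other genes, as the root mean square difference between Ct profiles after each gene was centred on its own mean. *TIMP2*, an inhibitor of metalloproteinases, was nearest to *STAT3* at 0.0541 cycles, followed by *AGER*, the RAGE receptor of S100 proteins, at 0.119 and *CCL-3*, a chemokine, at 0.122. *RAGE*, the other assay of the *AGER* gene, was not among these 3 genes. Its Ct was 16.86, 17.40, 16.91 and 18.07, beside 16.06, 16.63, 16.46 and 17.90 for *AGER*. *TIMP2* had a Ct of 17.56, 18.36, 18.00 and 19.45 in the order of groups above, and its log2 fold changes against HBSS + vehicle of 0.64, -0.78 and -0.90 stood beside 0.58, -0.87 and -0.85 for *STAT3*, all of them open to the same shift by the reference. *NF-κB* was nearest to *CCL-5* at 0.132 cycles, *CCL-4* at 0.174 and *CDH13*, a cadherin, at 0.191. *CCL-5*, a T cell chemokine, had a Ct of 19.45, 20.84, 20.00 and 21.22. *IRF-4* was nearest to *iNOS*, the inducible nitric oxide synthase, at 0.207 cycles, to *MT1*, a metallothionein, at 0.217 and to *TNF-α* at 0.223. Median differences to the other genes were 0.761 cycles for *STAT3*, 0.639 for *NF-κB* and 0.866 for *IRF-4*. The 3 factors were not one another's nearest genes. *IRF-4* lay at 0.278 cycles from *STAT3* and at 0.387 from *NF-κB*, and *STAT3* lay at 0.283 from *NF-κB*. These likenesses rest on 4 averaged values per gene that share the same RNA.

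The panel also holds genes that act upstream or downstream of the 3 factors. Of 6 genes that STAT3 is known to induce, 5 were more than 2-fold higher in S100A8 + vehicle than in HBSS + vehicle and none was lower, with a median log2 fold change of 1.17 beside 0.34 for the panel, of which 27.8% was higher and 17.5% lower by this measure. The count rested on the reference. It stayed at 5 with the first housekeeping assay alone but was 0 with the second, 1 (*SAA3*) with the panel median and 0 with no reference gene, at medians of 1.81, 0.53, 0.74 and -0.27, while the share of the panel more than 2-fold higher was 49.5%, 16.5%, 19.6% and 12.4%. The 5 genes were *SOCS3*, the feedback inhibitor of STAT3 (1.21), *VEGFα*, an angiogenic factor (1.14), *S100A8* (1.20), *S100A9* (1.06) and *SAA3*, an acute phase protein (1.61). *BCL2*, which protects from cell death, was at -0.37. *S100A8* and *S100A9* are also myeloid cell markers, and *NOX2*, the third such marker, was at 0.67. Of these 6 genes *VEGFα* alone was more than 2-fold higher with HBSS + LLC (2.32) and none with S100A8 + LLC, beside 26.5% and 22.4% of the panel. With the first housekeeping assay alone 5 and 4 of them were, beside 62.2% and 37.8% of the panel, and with the second none was, with 4 more than 2-fold lower in HBSS + LLC, where 63.3% of the panel was. The list medians there were 0.14 and 0.50, and both took either sign depending on the reference. In the lungs with cancer *SOCS3* was at -0.63 after HBSS and at -0.22 after S100A8, and both values turn above 0 with the first housekeeping assay alone. Between S100A8 + LLC and S100A8 + vehicle, 3 of the 6 genes were more than 2-fold lower, *SOCS3* (-1.43), *S100A9* (-1.99) and *SAA3* (-1.05), beside 29.6% of the panel, and *VEGFα* was at -0.66, *S100A8* at -0.39 and *BCL2* at 0.88. *SAA3* lost the call with the first housekeeping assay alone, and with no reference gene *S100A9* alone was more than 2-fold lower and *BCL2* was more than 2-fold higher.

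Activators of STAT3 did not move one way. Of 5 such genes, *IL-10* and *G-CSF* were more than 2-fold higher and *IL-6* and *IL-23* more than 2-fold lower in S100A8 + vehicle against HBSS + vehicle, with a median of 0.00, beside 27.8% of the panel higher and 17.5% lower. With the first housekeeping assay alone neither *IL-6* nor *IL-23* passed 2-fold (median 0.64), and with the second *G-CSF* did not (median -0.64). *G-CSF* also lost its call with the panel median (median -0.44) and with no reference gene (median -1.44), where the growth factor receptor *EGFR* was more than 2-fold lower too. Under these 4 references 49.5%, 16.5%, 19.6% and 12.4% of the panel was more than 2-fold higher, and 11.3%, 30.9%, 25.8% and 54.6% lower. *IL-6*, the main STAT3-activating cytokine, was detected at 26.07 cycles after HBSS + vehicle, at 29.13 after S100A8 + vehicle, at 26.36 after HBSS + LLC and at 28.29 after S100A8 + LLC. Normalised, it was 3.07-fold lower after S100A8 + vehicle, 1.55-fold lower after HBSS + LLC and 2.35-fold lower after S100A8 + LLC, although with the first housekeeping assay alone these values became -0.98, 0.97 and -0.49 on the log2 scale. *IL-10*, a suppressive cytokine, came up at 36.68 cycles in HBSS + vehicle and between 29.25 and 31.20 in the other groups, and its log2 fold changes of 7.23, 7.09 and 6.47 start from a level near the limit of detection.

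Of 17 assays of genes that NF-κB is known to induce, 8 were lower by more than 2-fold in S100A8 + LLC against HBSS + vehicle and 1 was higher, with a median of -0.94. Of all panel genes 18.4% were lower and 22.4% higher, with a median of -0.22. With the first housekeeping assay alone the 8 lower assays became 4 (*CXCL-1*, *CXCL-5*, *IL-1β* and *IL-12β*, median -0.20), with the second 15 (median -1.68), with the panel median 12 and with no reference gene 15. The share of the panel more than 2-fold lower was 8.16%, 48.0%, 41.8% and 56.1% under these references. The 8 assays measured the cytokines *IL-6*, *IL-1β*, *TNF-α* and *IL-12β* and the chemokines *CCL-2*, *CXCL-1*, *CXCL-2* and *CXCL-5*. *IL-12β*, a subunit of IL-12, was lowest at -3.52. *ICAM-1*, an adhesion molecule, was the gene above the threshold at 12.07, and it started from a Ct of 32.47 in HBSS + vehicle against 21.39. *IL-12β* went the other way in HBSS + LLC against HBSS + vehicle, at 2.86, and was at -6.38 in S100A8 + LLC against HBSS + LLC. In HBSS + LLC 5 target assays were lower and 3 higher (median -0.63), beside 21.4% and 26.5% of the panel, but with the first assay alone 0 were lower and 8 higher (median 0.97), where 62.2% of the panel was higher, and with the second 13 were lower and 2 higher, where 63.3% of the panel was lower. In S100A8 + vehicle 4 were lower and 2 higher (median -0.28), beside 17.5% and 27.8% of the panel, but 2 were lower and 6 higher with the first assay alone (median 0.36; 11.3% and 49.5% of the panel), 7 and 1 with the second (30.9% and 16.5%) and 11 and 1 with no reference gene (54.6% and 12.4%). *COX-2* and *PTGS2* are 2 assays of one gene and are counted separately, and they did not give the same values. Against HBSS + vehicle they were at -0.28 and -1.75 in S100A8 + vehicle and at 1.36 and 0.75 in HBSS + LLC. In S100A8 + LLC they were at -0.37 and -0.33. *PTGS2* alone thus passed 2-fold in S100A8 + vehicle and *COX-2* alone in HBSS + LLC.

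*TNF-α* and *IL-1β*, which activate NF-κB and are induced by it, were followed in each group. In the order of groups given for *STAT3*, *TNF-α* had a Ct of 23.46, 24.60, 24.58 and 25.82, and *IL-1β* had 21.12, 23.21, 21.64 and 24.00. As for the 3 factors, the Ct of both was lowest in HBSS + vehicle and highest in S100A8 + LLC. Against HBSS + vehicle, *IL-1β* was 3.71-fold and *TNF-α* 2.58-fold lower in S100A8 + LLC. Against HBSS + LLC, *IL-1β* was 2.04-fold lower under both treatments (log2 -1.03), but with the second housekeeping assay alone this value was -0.17. *TNF-α* was at 0.09 and *NF-κB* at -0.25 there, and both of these take either sign depending on the reference. Of the 5 assays of NF-κB activators, the cytokine *IL-18* was highest in each treated group against HBSS + vehicle, at log2 3.61, 5.02 and 4.15. It started from a Ct of 33.56 and was more than 2-fold higher under every reference, beside 27.8%, 26.5% and 22.4% of the panel with both housekeeping assays. The list medians were 0.87, -0.74 and -0.85, and the first 2 took either sign depending on the reference. The receptor assays *RAGE* and *AGER*, also in this list, target one gene of alveolar type 1 cells. They had Ct values of 16.06 to 18.07 in all groups, and the panel holds no further marker specific to lung.

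Genes tied to IRF-4 in T cells and alternatively activated macrophages went in both directions. Of 6 such genes, *IL-4*, *IL-10* and *ARG1* were more than 2-fold higher in all 3 treated groups against HBSS + vehicle and *IL-13* was more than 2-fold lower in each. In the panel 27.8%, 26.5% and 22.4% of genes were that much higher and 17.5%, 21.4% and 18.4% that much lower in these groups. The same calls were made under each reference, except that *IL-4* in S100A8 + vehicle did not pass with no reference gene. *IL-4*, a type 2 cytokine, was at the 38-cycle limit in HBSS + vehicle, so its log2 fold changes of 2.20 with S100A8 + vehicle, 6.97 with HBSS + LLC and 3.01 with S100A8 + LLC are lower bounds. *IL-13*, another type 2 cytokine, was at -2.20, -5.88 and -4.36, where *IRF-4* was at 0.06, -1.57 and -1.01. The list medians were 1.27, 2.93 and 2.46, against panel medians of 0.34, -0.19 and -0.22, and over the references they ran from -0.18 to 1.91, from 1.33 to 4.53 and from 1.47 to 3.20. The other two genes, the cytokines *IL-5* and *IL-2*, passed 2-fold in some groups, *IL-5* at -2.01 in S100A8 + vehicle and -1.16 in S100A8 + LLC and *IL-2* at 1.91 in the latter group, where its Ct of 35.97 against 36.89 in HBSS + vehicle was near the limit of detection. There *IL-5* did not pass with the first housekeeping assay alone, nor *IL-2* with no reference gene. *LCK* was at -1.63, -2.37 and -1.86, and had a Ct of 20.76 in HBSS + vehicle and 22.79 to 23.83 in the treated groups. *IRF-4* and *LCK* thus both had their lowest value in HBSS + LLC with both housekeeping assays as reference, whereas with the first alone both were lowest in S100A8 + LLC. In S100A8 + vehicle *LCK* was 3.10-fold lower with *IRF-4* at 0.06. The *LCK* values with the first assay alone were -0.99, -0.77 and -1.12 in the order of the treated groups, so that it passed 2-fold in S100A8 + LLC only.

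**Figure D4:**
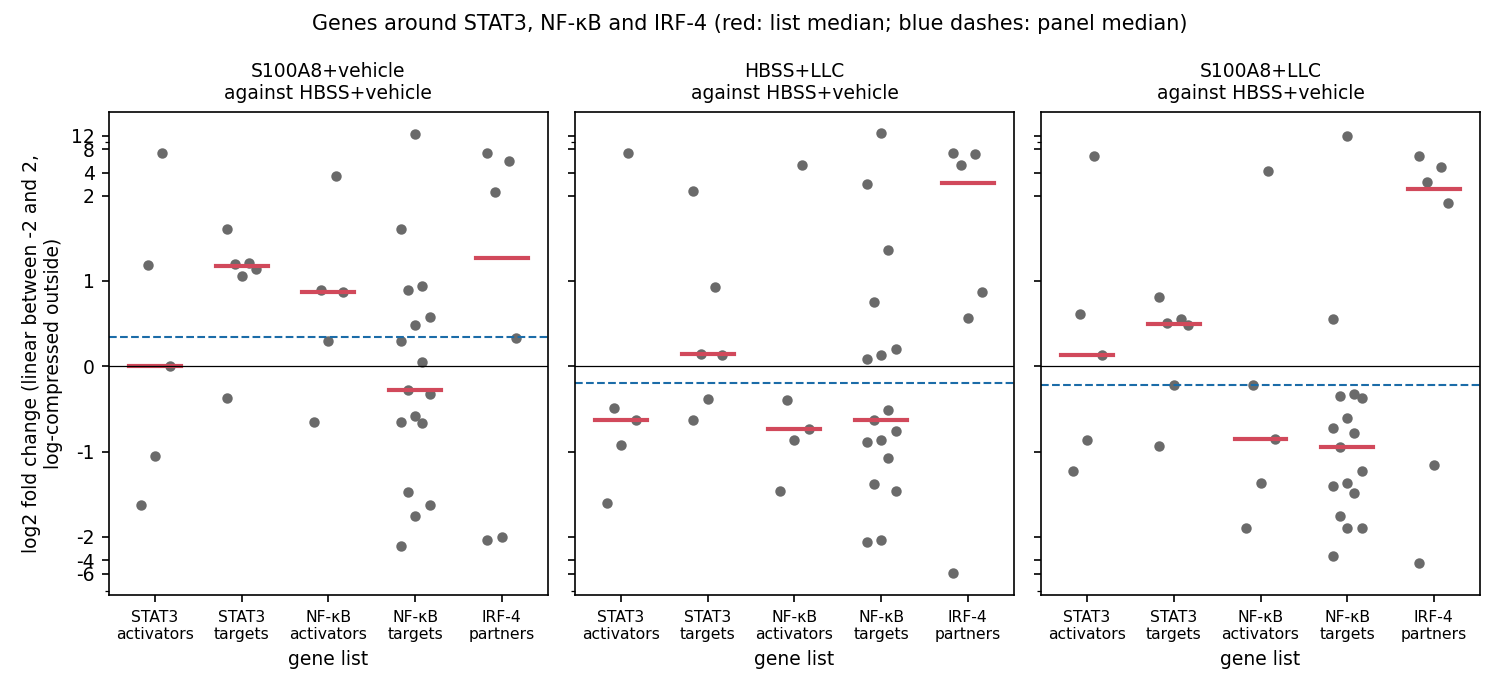
Log2 fold change of genes upstream and downstream of the 3 factors in the 3 treated groups, each against HBSS + vehicle. Each grey point is an assay, red bars are list medians and the dashed line is the panel median. The axis is linear between the marks at -2 and 2 and log-compressed outside. STAT3 targets have their highest median, 1.17, in S100A8 + vehicle and NF-κB targets their lowest, -0.94, in S100A8 + LLC, with both housekeeping assays as reference. This order changes with the reference, since NF-κB targets are lowest in HBSS + LLC with the second housekeeping assay alone, at -2.23, and STAT3 targets are highest in HBSS + LLC with no reference gene, at 0.48.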

How the data were processed

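RNA of whole lungs from 4 groups was measured by RT-qPCR on a panel of 98 genes and 2 housekeeping assays, starting from 1.5 µg of RNA. The authors set a limit of 38 cycles, averaged 4 to 5 mice per group and deposited 1 mean Ct per group and numbered assay, in cycles and without normalization. They also deposited fold changes, a ratio against HBSS + vehicle, whose values are the authors' own comparisons and are not reported here. These served to identify assays and groups, by matching the 3 fold changes printed for each gene. All 98 genes matched exactly 1 assay, with a largest difference of 0.000269%, and the 2 assays left over were taken as housekeeping genes.

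The log2 fold change was computed as the negative difference of normalised Ct values, with the average of both housekeeping assays subtracted in each group, and a gene was counted as higher or lower when it differed by more than 2-fold. Genes at the limit in both groups were left out of that comparison. The genes, lists and markers were chosen with earlier results of these data known. The genes named are the 3 factors, the 3 genes nearest to each, the lowest and highest gene of a list, its direct regulators, marker genes and the genes behind a small count, some of these chosen after seeing the values. References, thresholds of 1.5-fold and 3-fold, a filter at 30 cycles and a cap at 35 cycles were tried as alternatives. Promoters were read from the RefSeq table of GRCm38.p6. The computation was tested on simulated Ct values, in which 98 of 98 genes were recovered for S100A8 + LLC against HBSS + vehicle. Python 3.11.15, numpy 2.4.6 and matplotlib 3.10.9 were used. With 1 averaged value per group, precision is unknown.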

Additional observations from a re-analysis of the deposited data

How the results depend on the processing

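The reference was the choice that moved the 15 log2 fold changes of *STAT3*, *NF-κB* and *IRF-4*. Against the mean of both housekeeping assays, 2 values moved by less than 1.5-fold and kept their side of 2-fold with either assay alone, 11 with the median of the panel genes, 4 with no reference gene (chosen after seeing the data) and 15 with Ct capped at 35. Values are given for *STAT3*, *NF-κB* and *IRF-4* in this order, unless named. In S100A8 + vehicle against HBSS + vehicle they were 1.22, 0.65 and 0.70 with the first assay, -0.06, -0.63 and -0.58 with the second, and -0.86, -1.43 and -1.38 with no reference gene. In HBSS + LLC against HBSS + vehicle they were 0.73, 0.93 and 0.03 with the first assay and -2.47, -2.27 and -3.17 with the second. In S100A8 + LLC against HBSS + vehicle they were -0.11, -0.18 and -0.27 with the first assay, -1.59, -1.66 and -1.75 with the second, -1.46, -1.53 and -1.62 with the panel median, and -1.84, -1.91 and -2.0 with no reference gene. In S100A8 + LLC against HBSS + LLC they were -0.84, -1.11 and -0.30 with the first assay, 0.88, 0.61 and 1.42 with the second, and -1.31, -1.58 and -0.77 with no reference gene. In S100A8 + LLC against S100A8 + vehicle, *STAT3* was at -0.98 and *IRF-4* at -0.62 with no reference gene, *IRF-4* at -0.97 with the first assay, and *NF-κB* at -1.03 with the second and -1.10 with the panel median. A reference moves all genes of a comparison equally, so changes of one factor against another were the same under each. In S100A8 + LLC against HBSS + vehicle, 1 of the 3 factors was lower by over 2-fold, against 3 at a 1.5-fold threshold and 0 at 3-fold, beside 18.4%, 37.8% and 8.16% of the panel. Counts of the pathway lists were recomputed under each reference after seeing the data. Why the housekeeping assays differed was not tested. No paired analysis was possible because each group is a single averaged value, and for the same reason no replicate could be left out.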
